A study of Homo sapiens with 29 samples.

Results

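Transcript levels of tubulins and microtubule-binding proteins were described in xenograft tumours of a paclitaxel-resistant breast cancer line and of its parental line. The set of 38 genes was given by symbol and held α-, β-, γ-, δ- and ε-tubulins, microtubule-associated proteins, stathmins, plus-end proteins, and the factors that fold, modify or sever tubulin. Of these, 37 were matched by Ensembl identifier to the 58302 genes of the raw count table, and TBCE, a tubulin folding cofactor, was not matched. A filter on low counts kept 35 of the 37 among the 13495 genes tested, and TUBB3 and MAP7 did not pass it. The cells were MDA-MB-231, an established line from a human breast carcinoma without hormone receptors or amplified ERBB2, or a derivative of it established as resistant to paclitaxel, a drug that binds β-tubulin and stabilises microtubules. Cells were injected orthotopically on 2 sides of SCID-beige mice, a host without functional lymphocytes of the T and B lineages, and RNA of snap-frozen tumours was read as tags near the 3′ end of polyadenylated transcripts in 29 libraries. The stated purpose of the study was to ask whether resistance goes with expression changes tied to DNA methylation, and whether decitabine reverses them.

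For resistant tumours 1500000 cells were injected, with treatment starting on day 16. They made up the groups decitabine (3 libraries), doxorubicin (4), decitabine plus doxorubicin (3) and vehicle (4). For parental tumours 250000 cells were injected, with treatment starting on day 6. They made up the groups decitabine (4), doxorubicin (3), decitabine plus doxorubicin (4) and vehicle (4). Decitabine, a nucleoside drug that depletes DNA methyltransferases, was given at 0.4 mg/kg on days 1 to 4 and 10 to 11 of each cycle. Doxorubicin, an anthracycline that poisons topoisomerase II, was given at 1 mg/kg on days 5 and 12. Treatment lasted 26 days, as 2 cycles of 12 days with 2 days of rest between them. The line cannot be told apart from the number of cells injected and the start of treatment. The resistant line is a single derivative, and which tumours came from the same mouse is not given. The p-values therefore measure no more than the spread among these tumours, some of which may share an animal.

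Microtubules are hollow polymers of α- and β-tubulin dimers that lengthen and shorten at their plus ends, carry intracellular transport and form the mitotic spindle. Each tubulin is made from several genes, called isotypes, whose proteins differ mostly in their tails. Proteins that coat the lattice, such as tau, stabilise it, whereas stathmins sequester tubulin dimers and promote shortening, and folding cofactors assemble and take apart the dimers. Paclitaxel arrests dividing cells by suppressing the dynamics of spindle microtubules, and isotype composition, tau and stathmin have all been studied as markers of the response to taxanes.

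The libraries held between 3398261 and 5382295 counts (median 4600007), and the 37 matched members took between 0.731% and 1.09% of the counts of a library. Levels are given as CPM, counts per 1000000 counts of the library size after trimmed mean of M-values scaling. They are tag counts that do not scale with transcript length and can therefore be set side by side between genes. The labelled cell type was checked against its markers: VIM (1449 to 2784 CPM in resistant tumours, 2124 to 3031 CPM in parental tumours), CD44, MSN, CAV1 and ANXA1 were high in every library, ESR1 had at most 2.53 CPM in resistant and 0.949 CPM in parental tumours, and PGR had 0 counts and 1 count in all. ERBB2 was detected at up to 24.5 CPM in resistant and 20.5 CPM in parental tumours. Along the second principal component of 2000 variable genes, 2 libraries stood apart from the rest, library 2 of the resistant decitabine group at -43.1 and library 3 of the parental vehicle group at -34.6. Calls that rest on them are given with and without them, whereas differences that did not pass are mostly given only with them.

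Under vehicle, resistant tumours had more transcript of MAPT, MAP1A and STMN3 than parental tumours, and less of TUBB, TUBA1A, TBCC, MAP2, MAP9, MAP1S and MAP1B. The differences ranged on the log2 scale between -0.99 for MAP2, a dendritic microtubule-associated protein in neurons, and 2.07 for MAPT, which encodes tau. Of the 35 members tested, 3 were higher and 7 lower at an adjusted p under 0.05, or 28.6%, against 8.66% higher, 11.5% lower and 20.1% in all among the genes tested (edgeR's quasi-likelihood test with Benjamini-Hochberg adjustment over all genes). In 11 members the resistant and parental libraries did not overlap under vehicle, against 22.3% of all genes. The median log2 difference was -0.16 over the members and 0.02 over all genes. In bulk tumour RNA, fewer cells of a type and less RNA per cell cannot be told apart. Adjusted p-values below are from this fit, fold changes are resistant over parental or drug over vehicle, and errors of fold changes are standard errors (SE).

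Of 7 microtubule-associated proteins tested, 2 were higher and 4 lower in resistant tumours under vehicle, and 3 were higher and 4 lower on average over treatments. MAPT (ENSG00000186868, chromosome 17, 45894382 to 46028334 of GENCODE 29 on GRCh38) had the largest difference under vehicle of the 35 members. Tau coats axonal microtubules in neurons and is also made by some breast carcinomas. In vehicle-treated resistant tumours MAPT stood at 70.4, 50.7, 81.2 and 60.3 CPM, against 13.9, 12.2, 18 and 18.5 CPM in vehicle-treated parental tumours. The lowest resistant library was above the highest parental one, with a log2 fold change of 2.07 ± 0.19 (SE), adjusted p = 8.33e-09. Across all treatments, MAPT ranged over 45.4 to 85.3 CPM (median 69.1, n = 14) in resistant tumours and 7.02 to 26 CPM (median 18, n = 15) in parental tumours, again without overlap. The difference was 2.63 ± 0.21 (SE), adjusted p = 9.41e-10 under decitabine, 1.89 ± 0.21 (SE), adjusted p = 2.06e-07 under doxorubicin and 1.58 ± 0.19 (SE), adjusted p = 1.71e-06 under the combination. The antisense gene MAPT-AS1, which overlaps MAPT on the other strand, had 0 counts in every library, as did STH inside MAPT.

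MAP1A (ENSG00000166963, chromosome 15, 43510958 to 43531620), a lattice-binding protein of mature neurons with a shared light chain family, was also higher in resistant tumours, at a low level. It had 9.47, 9.37, 14.9 and 5.88 CPM in the vehicle-treated resistant libraries and 3.48, 2.82, 3.34 and 3.19 CPM in the vehicle-treated parental libraries. These groups did not overlap, with a log2 fold change of 1.62 ± 0.32 (SE), adjusted p = 0.000484. Under decitabine it had 9.86, 9.89 and 6.17 CPM in resistant and 2.09, 0.959, 2.15 and 2.09 CPM in parental tumours, a difference of 2.23 ± 0.36 (SE), adjusted p = 4.33e-05. The differences under doxorubicin (1.72, adjusted p = 0.00137) and the combination (1.77, adjusted p = 0.000574) were of like size. No resistant library of any treatment was as low as the highest parental one.

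The other members of the class that passed under vehicle were lower in resistant tumours. MAP1B, the relative of MAP1A that is known from growing axons, was by far the more abundant of the pair, at 599, 581, 537 and 524 CPM in the vehicle-treated resistant libraries and 731, 769.9, 629.9 and 686 CPM in the parental ones. The groups did not overlap, but the difference was small, at -0.33 ± 0.11 (SE), adjusted p = 0.0279. Under decitabine it was -0.43 (adjusted p = 0.00657), and it was 0.05 (adjusted p = 0.771) under the combination. MAP1S, a short member of the same family linked to autophagy, had 16.8, 27.4, 31.2 and 19 CPM in vehicle-treated resistant and 25.5, 42.4, 39.9 and 34.7 CPM in vehicle-treated parental tumours, with overlapping groups (-0.59 ± 0.19 (SE), adjusted p = 0.0237). Its call was lost without parental library 3, which stands apart (adjusted p = 0.0752), without parental library 2 (0.0973), without resistant library 1 (0.127) or 4 (0.099), and without both libraries that stand apart (0.0602). That of MAP1B was lost without parental library 1 (adjusted p = 0.0777), 2 (0.103) or 4 (0.0532), without resistant library 3 (0.0832) or 4 (0.103), and without the filter on low counts (0.108). Its decitabine call was lost without resistant library 2 (adjusted p = 0.0722), which stands apart, and when the compared groups were fitted alone (0.0691). MAP1S was also lower under doxorubicin (-0.75 ± 0.20 (SE), adjusted p = 0.00914), a call that was lost without parental library 3 (adjusted p = 0.094).

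MAP2 stood at 8.25, 9.37, 13.6 and 12.7 CPM in the vehicle-treated resistant libraries and 14.6, 24.1, 22.6 and 26 CPM in the parental ones, without overlap (-0.99 ± 0.27 (SE), adjusted p = 0.00844). In the drug-treated groups none of the differences of MAP2 passed: -0.79 (adjusted p = 0.0626) under decitabine, 0.05 (adjusted p = 0.945) under doxorubicin and -0.57 (adjusted p = 0.158) under the combination. Without the filter on low counts the one under decitabine passed (-0.80, adjusted p = 0.0167). MAP9, a spindle-associated protein also known as ASAP, had 31.1, 22, 24.6 and 24.2 CPM in vehicle-treated resistant and 40.3, 33.9, 39.1 and 31.7 CPM in vehicle-treated parental tumours. The highest resistant library was just below the lowest parental one (-0.51 ± 0.13 (SE), adjusted p = 0.00483), and MAP9 was also lower under decitabine (-0.83, adjusted p = 6.49e-05) and the combination (-0.54, adjusted p = 0.00579). MAP4, the main lattice-binding protein outside the nervous system, was slightly higher in resistant tumours averaged over treatments. It had 284, 275, 287 and 264 CPM in vehicle-treated resistant and 230.0, 236, 252 and 255 CPM in vehicle-treated parental tumours, groups that did not overlap but whose difference did not pass (0.19 ± 0.10 (SE), adjusted p = 0.164). Averaged over the 4 treatments, MAP4 differed by 0.15 ± 0.05 (SE), adjusted p = 0.0148, a call that was lost without the filter on low counts (adjusted p = 0.172). MAP7, which recruits kinesin-1 to microtubules, was near the detection limit, with 32 counts over all resistant and 71 counts over all parental libraries, and was not tested with the filter on low counts. Without the filter it was lower in resistant tumours on average (-0.92 ± 0.36 (SE), adjusted p = 0.0488).

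**Figure D1:**
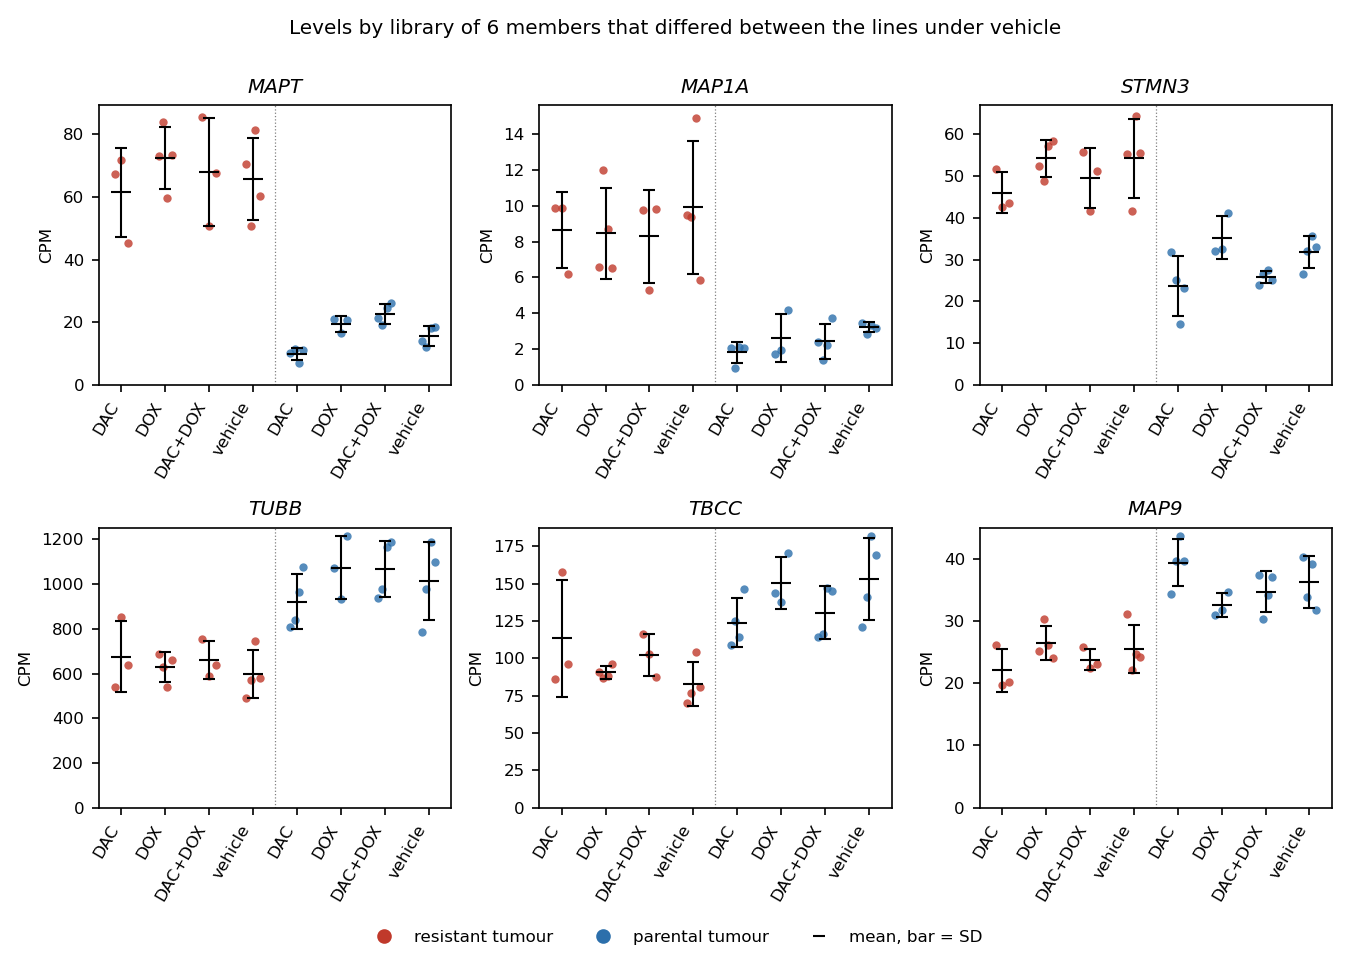
CPM (y axis, from 0) of MAPT, MAP1A, STMN3, TUBB, TBCC and MAP9 in each library by treatment, with resistant tumours in red on the left and parental tumours in blue on the right of each panel. Black marks are means and bars are SD of 3 or 4 libraries. MAPT, MAP1A and STMN3 are higher in every resistant library than in any parental library, whereas TUBB, TBCC and MAP9 overlap across treatments.

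Of the 4 α-tubulins, 1 was lower in resistant tumours under vehicle and on average. TUBA1B, TUBA1C and TUBA4A did not pass in any of the 4 line differences or on average, although without the filter on low counts TUBA1C (-0.46, adjusted p = 0.0185) and TUBA1A (-0.43, adjusted p = 0.0375) were lower under decitabine. TUBA1A, the isotype best known from developing neurons, had 147.6, 196, 241 and 179 CPM in vehicle-treated resistant tumours and 208, 323, 273 and 337 CPM in vehicle-treated parental tumours. The groups overlapped (-0.58 ± 0.19 (SE), adjusted p = 0.0275). The difference was -0.63 ± 0.20 (SE), adjusted p = 0.0264 under the combination and -0.46 ± 0.10 (SE), adjusted p = 0.000344 averaged over treatments. Without resistant library 1, 2 or 4, or parental library 2 or 4, the vehicle call was lost (adjusted p between 0.0541 and 0.135), whereas the average was called in every fit that left out 1 library. Under the combination, TUBA1A lost its call without resistant library 2 (adjusted p = 0.134) or 3 (0.0735) or parental library 1 (0.168).

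TUBA1B, a ubiquitous isotype, held most of the α-tubulin counts, at 1289 to 2404 CPM (median 1695, n = 14) in resistant and 1242 to 2322 CPM (median 1808, n = 15) in parental tumours. It made up 56.25% ± 1.57 of α-tubulin counts in resistant and 54.96% ± 1.92 in parental libraries (mean ± SD, n = 14 and 15), and TUBA1C 30.1% ± 1.93 in resistant and 29.96% ± 1.3 in parental libraries. TUBA4A, another widely expressed isotype, held 183, 228, 259 and 222 CPM in vehicle-treated resistant and 156, 199, 170.3 and 178 CPM in vehicle-treated parental tumours, just short of the threshold (0.34 ± 0.13 (SE), adjusted p = 0.0617). The sum of the 4 α-tubulins was 3156 ± 478 CPM in resistant and 3332 ± 493 CPM in parental tumours. The TUBA1 genes are near-identical in their coding sequence, TUBA1A and TUBA1C overlap on opposite strands, and the strand setting of the counting is not given in the sources used here, so their values are uncertain.

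Of 5 β-tubulins tested, 0 were higher and 1 lower in resistant tumours under vehicle, and 1 was higher and 3 lower on average. TUBB (ENSG00000196230, chromosome 6, 30720201 to 30725426), the β-tubulin of most dividing cells, was the tubulin called under all 4 treatments. Vehicle-treated resistant tumours had 489, 569.8, 747 and 581 CPM of TUBB and vehicle-treated parental tumours 785, 978, 1189 and 1098 CPM. All 4 resistant libraries lay below all 4 parental ones, with a log2 fold change of -0.76 ± 0.15 (SE), adjusted p = 0.000495. TUBB was also lower in resistant tumours under decitabine (-0.45 ± 0.16 (SE), adjusted p = 0.0409), doxorubicin (-0.77 ± 0.16 (SE), adjusted p = 0.00116) and the combination (-0.69 ± 0.16 (SE), adjusted p = 0.00341). With doxorubicin there were 689, 629, 538 and 662 CPM in resistant and 1073, 936 and 1215 CPM in parental tumours, and with the combination 754, 589 and 637 CPM in resistant and 938, 979.7, 1165 and 1187 CPM in parental tumours, both without overlap. The decitabine groups overlapped through the library that stands apart, at 540.5, 852 and 636 CPM in resistant and 807, 841, 965 and 1075 CPM in parental tumours. Without the libraries that stand apart, that difference was -0.65 (adjusted p = 0.00641). The call under decitabine was lost without resistant library 1 (adjusted p = 0.195) or 3 (0.119), or parental library 3 (0.0772) or 4 (0.0987), with the replicate number as a block (0.0595), and under DESeq2's size factors (0.0548) or upper quartile scaling (0.079).

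TUBB6, a broadly expressed divergent isotype, was about as abundant as TUBB. It had 528, 733, 808 and 811 CPM in vehicle-treated resistant and 899, 984, 1536 and 842 CPM in vehicle-treated parental tumours, and every resistant library lay below every parental one. The difference did not pass under vehicle (-0.56 ± 0.22 (SE), adjusted p = 0.0643). Without the filter on low counts it did, at nearly the same estimate but a smaller SE (-0.57 ± 0.13 (SE), adjusted p = 0.000554). With the filter, TUBB6 passed under doxorubicin (-0.77 ± 0.23 (SE), adjusted p = 0.0235) and on average (-0.33 ± 0.11 (SE), adjusted p = 0.0186). Under the combination the sign was the other way, at 0.19 (adjusted p = 0.58), with 1037, 1627 and 739 CPM in resistant and 783, 964, 1206 and 1016 CPM in parental tumours, so that resistant library 2 was the highest of all libraries. The doxorubicin call was lost without parental library 3 (adjusted p = 0.295) or resistant library 1 (0.0549), 2 (0.0561) or 3 (0.0671), and the average call without parental doxorubicin library 3 (0.0769) or resistant vehicle library 1 (0.0503).

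TUBB4B, a ubiquitous isotype, was the only β-tubulin that was higher in resistant tumours on average, and by little. It ranged over 134 to 313 CPM (median 196, n = 14) in resistant and 116 to 206 CPM (median 179, n = 15) in parental tumours (0.24 ± 0.09 (SE), adjusted p = 0.0331), and none of the 4 single differences passed (0.08 to 0.44), although the one under decitabine did without the filter on low counts (0.43, adjusted p = 0.0382). Its average call held without both libraries that stand apart (adjusted p = 0.0356), but was lost without resistant decitabine library 2 alone (0.083), resistant combination library 1 (0.116) or parental doxorubicin library 2 (0.0719). TUBB2A ranged over 20.8 to 38.1 CPM (median 28.9, n = 14) in resistant and 27.8 to 44.9 CPM (median 37.8, n = 15) in parental tumours and was lower on average (-0.36 ± 0.07 (SE), adjusted p = 0.000249) and under decitabine (-0.54 ± 0.15 (SE), adjusted p = 0.00959). The decitabine call was lost without resistant library 1 (adjusted p = 0.0596) and when the compared groups were fitted alone (0.0623), and the average was called in every fit that left out 1 library. Its near-identical neighbour TUBB2B did not pass on average (-0.09 ± 0.18 (SE), adjusted p = 0.725). The reads of TUBB2A and TUBB2B can be split between the copies, and their values are uncertain. TUBB3, the neuronal isotype that has been linked to taxane resistance in several carcinomas, had almost no counts, with 2 counts over 14 resistant libraries and 6 counts over 15 parental libraries. At these counts no fold change is given. TUBB3 overlaps the protein-coding gene AC092143.1 on the same strand, and how shared reads were counted is not given, so its level is uncertain. TUBB6 overlaps AFG3L2, TUBB4B overlaps FAM166A and TUBB2B overlaps PSMG4 on the opposite strand, and without the strand setting their reads cannot be told apart.

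As shares of all β-tubulin counts, TUBB made up 37.1% ± 4.67 in resistant and 43.9% ± 4.07 in parental libraries (mean ± SD, n = 14 and 15). TUBB4B made up 11.7% ± 2.05 in resistant and 7.34% ± 0.987 in parental libraries, and TUBB6 48.3% ± 6.35 in resistant and 46.2% ± 3.98 in parental libraries. TUBB and TUBB6 together made up the bulk of the β-tubulin counts in both lines. Under vehicle, TUBB4B shares ran from 10.6% to 12% in resistant and 6.86% to 7.87% in parental tumours and did not overlap. The shares are a description, with no test. The 6 β-tubulins summed to 1744 ± 351 CPM in resistant and 2326 ± 359 CPM in parental tumours. The resistant combination library 2 departed from this make-up, with 67.6% TUBB6 and 24.5% TUBB.

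**Figure D2:**
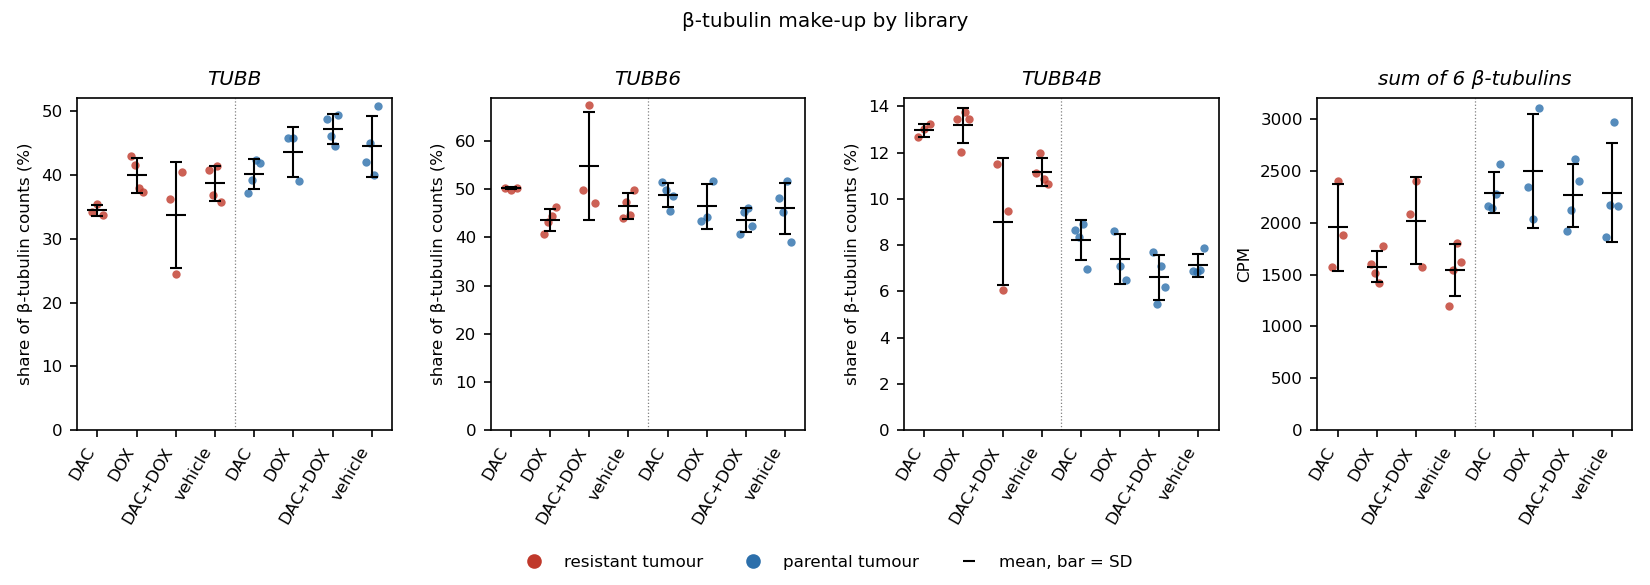
Share of β-tubulin counts (%) taken by TUBB, TUBB6 and TUBB4B, and the sum of the 6 β-tubulins (CPM), in each library by treatment, with all y axes from 0. Resistant tumours are red and on the left, parental tumours blue and on the right, and black marks are means with SD. TUBB4B shares are higher in the resistant groups, and 1 combination-treated resistant library has a TUBB6 share of 67.6%.

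Of the 3 minor tubulins, 0 were called under vehicle, and 2 were lower on average. TUBG1, the γ-tubulin that nucleates microtubules at centrosomes, ranged over 83.2 to 131 CPM (median 97.6, n = 14) in resistant and 82.7 to 136 CPM (median 113, n = 15) in parental tumours. On average the log2 difference was -0.19 ± 0.07 (SE), adjusted p = 0.0325. TUBE1 and TUBD1, the ε- and δ-tubulins of centrioles, were scarce, at 2.83 to 7.25 CPM (median 5.33, n = 14) and 3.37 to 7.63 CPM (median 5.62, n = 14) in resistant tumours, and 4.63 to 9.43 CPM (median 6.7, n = 15) and 3.65 to 9.27 CPM (median 5.71, n = 15) in parental tumours. TUBE1 was lower on average (-0.33 ± 0.13 (SE), adjusted p = 0.0439) and TUBD1 did not pass (0.09 ± 0.13 (SE), adjusted p = 0.584). None of the 3 passed under a single treatment. The average calls of TUBG1 and TUBE1 held in 16 and 12 of 29 fits that each left out 1 library. That of TUBG1 was lost under upper quartile scaling (adjusted p = 0.0869) and without the filter on low counts (0.0508). That of TUBE1 was lost under DESeq2's size factors (adjusted p = 0.0512), upper quartile scaling (0.0777), the replicate block (0.0615) and DESeq2 (0.0586), and without the filter (0.092).

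The stathmins, which bind tubulin dimers and favour disassembly, went in opposite directions on average. STMN3 (ENSG00000197457, chromosome 20, 63639705 to 63657682), a relative best known from neurons, was higher in resistant tumours, at 55.4, 41.6, 64.4 and 55.6 CPM in the vehicle-treated resistant and 26.7, 32.2, 35.8 and 33.1 CPM in the vehicle-treated parental libraries. The groups did not overlap (0.77 ± 0.16 (SE), adjusted p = 0.00107), and neither did all 14 resistant and all 15 parental libraries, at 41.6 to 64.4 CPM (median 52, n = 14) in resistant and 14.6 to 41.2 CPM (median 27.4, n = 15) in parental tumours. The difference was 0.95 ± 0.18 (SE), adjusted p = 0.000193 under decitabine, 0.63 ± 0.18 (SE), adjusted p = 0.0151 under doxorubicin and 0.94 ± 0.17 (SE), adjusted p = 0.000337 under the combination. STMN3 had 52.5, 48.8, 57.2 and 58.3 CPM in resistant and 31.9, 32.5 and 41.2 CPM in parental tumours under doxorubicin, where the call was lost without parental library 1 (adjusted p = 0.0884) or 2 (0.0664). STMN1, the stathmin of dividing cells, was among the most abundant members, at 1312, 1269.9, 1518 and 1506 CPM in vehicle-treated resistant and 1663, 1622, 1577 and 1443 CPM in vehicle-treated parental tumours. These values overlapped (-0.17 ± 0.10 (SE), adjusted p = 0.259). Under decitabine STMN1 was lower in resistant tumours, at 1176, 1282 and 1434 CPM against 1807, 1744, 1868 and 1721 CPM in parental tumours (-0.46 ± 0.11 (SE), adjusted p = 0.00286), and it was lower on average (-0.28 ± 0.05 (SE), adjusted p = 0.000108).

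Plus-end proteins track growing microtubule ends. Of 6 tested, 0 were called under vehicle, and 1 was higher and 1 lower on average. MAPRE3, which encodes the end-binding protein EB3, was higher in resistant tumours but scarce, with 109 counts over the resistant and 45 counts over the parental libraries. It ranged over 0.631 to 2.56 CPM (median 1.81, n = 14) in resistant and 0 to 1.46 CPM (median 0.57, n = 15) in parental tumours (1.48 ± 0.30 (SE), adjusted p = 0.000181), and of the single differences the one under decitabine passed (2.23 ± 0.65 (SE), adjusted p = 0.0121). That call was lost without resistant library 3 (adjusted p = 0.0816). Its relative MAPRE1, encoding EB1, was lower in resistant tumours under decitabine, at 46.6, 35.3 and 50.2 CPM against 78, 58.5, 66.3 and 48.7 CPM in parental tumours with overlap (-0.51 ± 0.19 (SE), adjusted p = 0.0441). It did not pass on average (-0.15 ± 0.09 (SE), adjusted p = 0.2). The decitabine call of MAPRE1 was lost without resistant library 1 (adjusted p = 0.0626) or 2 (0.218) or parental library 1 (0.147) or 3 (0.0868), without both libraries that stand apart (0.159), under upper quartile scaling (0.0807) and when the compared groups were fitted alone (0.115). CLASP2, a rescue factor at plus ends and kinetochores, was lower on average, at 41.5 to 60.7 CPM (median 51.7, n = 14) in resistant and 54.8 to 68.4 CPM (median 58.3, n = 15) in parental tumours (-0.23 ± 0.06 (SE), adjusted p = 0.00109). It was also lower under doxorubicin (-0.41 ± 0.11 (SE), adjusted p = 0.0135), a call that was lost without parental library 3 (adjusted p = 0.0842), resistant library 1 (0.0506) or the filter on low counts (0.134). Its relative CLASP1 did not pass on average (0.04 ± 0.09 (SE), adjusted p = 0.792). CLIP1, encoding CLIP-170, passed under doxorubicin, and in no other of the 4 line differences, at 195, 182, 185 and 188 CPM in resistant and 154, 152 and 152 CPM in parental tumours without overlap (0.30 ± 0.08 (SE), adjusted p = 0.0162). Its call was lost without parental library 1 (adjusted p = 0.0506) or 2 (0.0535) and without the filter on low counts (0.398). Without the filter its estimate was 0.28, with a larger SE of 0.15. DESeq2 called CLIP1 higher in resistant tumours also under the combination (0.20, adjusted p = 0.0314) and on average (0.10, adjusted p = 0.0114). MAPRE2, encoding EB2, did not pass in any line difference.

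Folding cofactors hold the α- and β-tubulin monomers that leave the chaperonin and join them into dimers. Of 4 tested, 0 were higher and 1 lower in resistant tumours under vehicle, and 1 was higher and 2 lower on average. TBCC (ENSG00000124659, chromosome 6, 42744481 to 42746096), which triggers the release of finished dimers, was lower in resistant tumours, at 70.2, 77, 104 and 80.5 CPM in the vehicle-treated resistant and 121, 141, 182 and 169 CPM in the vehicle-treated parental libraries. The groups did not overlap (-0.88 ± 0.16 (SE), adjusted p = 0.000227). Under doxorubicin the difference was -0.73 ± 0.17 (SE), adjusted p = 0.00364. Under decitabine it did not pass (-0.13 ± 0.17 (SE), adjusted p = 0.599), with 85.9, 158 and 96 CPM in resistant and 109, 125, 114 and 146 CPM in parental tumours. The resistant library at 158 CPM is the one that stands apart. The others, at 85.9 and 96 CPM, were below every parental library, and the difference without it is not given here. TBCA, which binds β-tubulin, passed under each drug treatment, where it was lower in resistant tumours, and not under vehicle. Its difference was -0.38 ± 0.11 (SE), adjusted p = 0.0123 under decitabine, -0.35 ± 0.11 (SE), adjusted p = 0.0351 under doxorubicin, -0.49 ± 0.11 (SE), adjusted p = 0.00267 under the combination and -0.01 ± 0.10 (SE), adjusted p = 0.963 under vehicle. No drug response of TBCA passed the test between the lines (adjusted p = 0.128 for the combination). TBCA was lower on average in all 29 fits without 1 library, at -0.34 to -0.27 over all alternatives. Under vehicle, resistant library 1 had 400 CPM, against 343 to 353 CPM in the other resistant libraries. The decitabine call of TBCA was lost without resistant library 2 (adjusted p = 0.0604) and without both libraries that stand apart (0.0581). It was also lost without the filter on low counts (0.061) and when the compared groups were fitted alone (0.0796). The doxorubicin call of TBCA was lost without any 1 of 6 of the 7 libraries concerned (adjusted p between 0.0524 and 0.255). Upper quartile scaling (0.0773), no filter (0.153) and fitting the compared groups alone (0.0612) also lost it.

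TBCD, which binds β-tubulin and helps to form the dimer, was higher in resistant tumours under decitabine (0.81 ± 0.24 (SE), adjusted p = 0.0138) and the combination (0.73 ± 0.24 (SE), adjusted p = 0.0332). The decitabine groups held 83.8, 166 and 87.7 CPM in resistant and 56.8, 57.5, 56.2 and 85.6 CPM in parental tumours, with the highest value in the library that stands apart. Without that library the difference was 0.42 (adjusted p = 0.248), and the average difference (0.32 ± 0.12 (SE), adjusted p = 0.0308) was then 0.22 (adjusted p = 0.102). Without both libraries that stand apart, the average was 0.29 (adjusted p = 0.0126). The combination call was lost without resistant library 1 (adjusted p = 0.162) or 2 (0.0895) or parental library 1 (0.099) or 2 (0.102), and the average call also without resistant combination library 1 (0.0697) or parental doxorubicin library 2 (0.0617). TBCB, which binds α-tubulin, ranged over 25.4 to 82.1 CPM (median 65.8, n = 14) in resistant and 27.8 to 94.9 CPM (median 70.0, n = 15) in parental tumours and did not pass in any line difference in edgeR with the filter on low counts. Without the filter it was lower in resistant tumours under the combination (-0.66, adjusted p = 0.0015) and on average (-0.22, adjusted p = 0.036). On the opposite strand TBCB overlaps POLR2I, and TBCD overlaps ZNF750 and B3GNTL1, so the values of both cofactors are uncertain.

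TTL, the ligase that returns tyrosine to the tail of α-tubulin, was lower on average, at 81.9 to 134 CPM (median 111, n = 14) in resistant and 98.3 to 149 CPM (median 129.8, n = 15) in parental tumours (-0.21 ± 0.06 (SE), adjusted p = 0.00688). It was also lower under decitabine, at 106, 113 and 119 CPM in resistant and 148.1, 141, 149 and 139 CPM in parental tumours without overlap (-0.36 ± 0.13 (SE), adjusted p = 0.0378). This call was lost without any 1 of 4 of the 7 libraries concerned (adjusted p between 0.0643 and 0.112), without both libraries that stand apart (0.088), without the filter on low counts (0.109), under upper quartile scaling (0.0837) and when the compared groups were fitted alone (0.0839). HDAC6, which removes acetyl groups from α-tubulin in the lattice, did not pass on average (-0.15 ± 0.09 (SE), adjusted p = 0.16). Of the severing enzymes, which cut microtubules internally, KATNA1 differed by -0.19 ± 0.07 (SE), adjusted p = 0.0316, a call that held in 14 of 29 fits without 1 library. It was also lost under DESeq2's size factors (adjusted p = 0.0502) and upper quartile scaling (0.0944) and without the filter (0.133). SPAST, encoding spastin, did not pass on average (-0.14 ± 0.08 (SE), adjusted p = 0.141). Under single treatments, the difference of these 4 enzymes farthest from 0 was -0.49 for HDAC6 under doxorubicin, which did not pass (adjusted p = 0.0682) but did without the filter on low counts (-0.50, adjusted p = 0.0405). TTL under decitabine was the single-treatment call among them.

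Set side by side over the 4 treatments, 18 of 35 members kept the same sign of the line difference, 6 of them higher and 12 lower in resistant tumours, against 42.3% of all genes with 1 sign. MAPT, MAP1A, STMN3 and TUBB were called in all 4 line differences, as were 5.78% of all genes tested. The members called were 13 under decitabine (5 higher, 8 lower, against 13.7% higher, 13.1% lower and 26.8% in all), 10 under doxorubicin (4 higher, 6 lower, against 5.88%, 8.05% and 13.9%), 8 under the combination (4 higher, 4 lower, against 10.6%, 11.4% and 21.9%) and 23 on average over treatments (7 higher, 16 lower, or 65.7% of members, against 22.6% higher, 23.4% lower and 46% in all). MAPT, MAP1A and STMN3, 3 of the 35 members, had no overlap between all 14 resistant and all 15 parental libraries, as had 3.34% of all genes. Without resistant decitabine library 2, 8 members were called under decitabine: MAP1B, MAPRE1, TBCA, TBCD and TTL were lost. When the decitabine groups were fitted alone, 6 were called. Under upper quartile scaling the decitabine count was 7 higher and 5 lower. Under doxorubicin the count fell to 6 without parental library 3, with TUBB6, MAP1S, CLASP2 and TBCA lost.

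**Figure D3:**
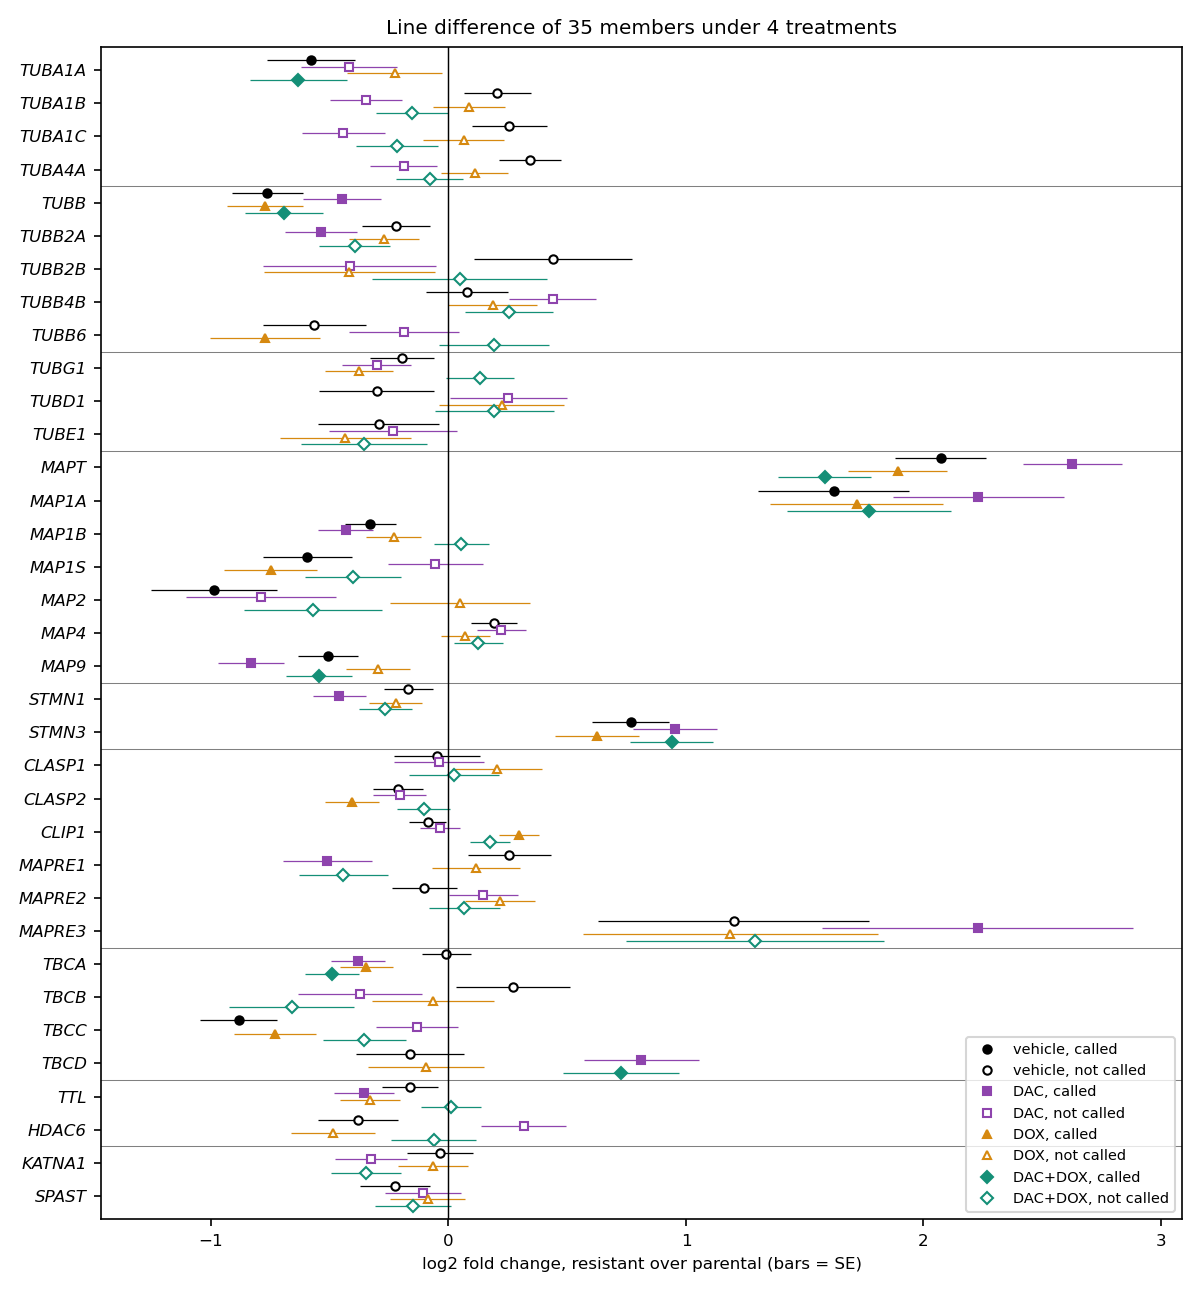
Log2 fold change of resistant over parental tumours (x axis, bars are SE) for the 35 members tested (rows, grouped by role), under vehicle (circles), decitabine (DAC, squares), doxorubicin (DOX, triangles) and the combination (diamonds). Filled symbols passed an adjusted p under 0.05. MAPT, MAP1A and STMN3 lie to the right and TUBB to the left under all 4 treatments.

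Against vehicle, no member passed the test under decitabine alone in either line. edgeR called 0 members in resistant tumours, against 3.33% of all genes, and 0 in parental tumours, against 1.67%. At an unadjusted p under 0.05 there were 7 members in resistant tumours, against 19.8% of all genes, and 13 in parental tumours, against 19.2%. Over all members the median log2 response was 0.05 in resistant and 0.07 in parental tumours. DESeq2 called 1 member in resistant tumours, CLIP1 (log2 fold change 0.26, adjusted p = 0.0135), and 2 in parental tumours, TUBA1B (0.47, adjusted p = 0.0356) and MAP2 (-0.90, adjusted p = 0.0332). Without the filter on low counts edgeR called 3 in each line, TUBB2B, TUBB4B and TBCD in resistant tumours and TUBA1B, MAPT and MAP2 in parental tumours. All of these were singled out after their values were seen. In parental tumours TUBA1B had 2311, 2104, 2322 and 1718 CPM under decitabine and 1684, 1736, 1242 and 1475 CPM under vehicle (0.46 ± 0.14 (SE), adjusted p = 0.076 in edgeR), and MAP2 had 10.6, 14, 8 and 13.9 CPM under decitabine and 14.6, 24.1, 22.6 and 26 CPM under vehicle (-0.91 ± 0.26 (SE), adjusted p = 0.0626 in edgeR). The TUBA1B groups overlapped by 1 library, and all decitabine-treated libraries were below all vehicle-treated ones for MAP2.

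The members that differed between the lines under vehicle did not pass under decitabine in resistant tumours. MAPT had 67.2, 71.8 and 45.4 CPM in decitabine-treated resistant tumours, against 70.4, 50.7, 81.2 and 60.3 CPM under vehicle (-0.10 ± 0.19 (SE), adjusted p = 0.806). In parental tumours every decitabine-treated library had less MAPT than any vehicle-treated one, a difference that did not pass with the filter on low counts (-0.65, adjusted p = 0.0943). TBCC, which was low in the resistant line, had 85.9, 158 and 96 CPM under decitabine and 70.2, 77, 104 and 80.5 CPM under vehicle in resistant tumours (0.44 ± 0.17 (SE), adjusted p = 0.148), and the highest of these is from the library that stands apart. The 95% interval of the response was -0.49 to 0.29 for MAPT, -0.84 to 0.43 for MAP1A, -0.59 to 0.12 for STMN3 and -0.15 to 0.51 for TUBB on the log2 scale.

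The response to decitabine was also compared between the lines. No member passed this test of the difference in edgeR, against 0.119% of all genes, with 8 members at an unadjusted p under 0.05, against 19.6%, and 0 called by DESeq2. Without the filter on low counts edgeR called 4, TUBA1C, MAPRE1, TBCC and TBCD. The smallest adjusted p with the filter was that of TBCC, at 0.75 ± 0.24 (SE), adjusted p = 0.116, and it was followed by MAPRE1 (-0.77 ± 0.26 (SE), adjusted p = 0.129) and TUBA1C (-0.70 ± 0.23 (SE), adjusted p = 0.133). These values include both libraries that stand apart and are not given without them. TUBA1C had 867, 599.8 and 978 CPM under decitabine and 829.4, 952, 1002 and 1195 CPM under vehicle in resistant tumours, and 1159.6, 1129, 1229.5 and 912 CPM under decitabine and 932, 914, 657 and 828 CPM under vehicle in parental tumours. The groups of each line overlapped. Among other genes, the summed level of 15 proliferation genes ran from 2680 to 3640 CPM under decitabine and 1510 to 2520 CPM under vehicle in parental tumours, and from 2030 to 2960 CPM under decitabine and 1850 to 2600 CPM under vehicle in resistant tumours. Their part in the levels of the tubulin genes was not tested.

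Averaged over both lines and over doxorubicin, decitabine was associated with higher CLIP1 and lower STMN3. These were 2 of the 35 members, against 6.8% of all genes. CLIP1 had 215, 194 and 204 CPM under decitabine and 168, 171, 172 and 179 CPM under vehicle in resistant tumours, and 192, 204, 217 and 226 CPM under decitabine and 191, 168, 195 and 179 CPM under vehicle in parental tumours. The resistant groups did not overlap and the parental ones did. With doxorubicin in both arms, CLIP1 had 197, 186 and 214 CPM with and 195, 182, 185 and 188 CPM without decitabine in resistant tumours, and 171, 183, 180.0 and 171 CPM with and 154, 152 and 152 CPM without it in parental tumours, where the groups did not overlap. The mean difference was 0.18 ± 0.04 (SE), adjusted p = 0.00529, a small change that was called in each of 29 fits without 1 library but not without the filter on low counts (adjusted p = 0.208). STMN3 had 51.6, 42.7 and 43.6 CPM under decitabine and 55.4, 41.6, 64.4 and 55.6 CPM under vehicle in resistant tumours, and 31.9, 25.1, 14.6 and 23.2 CPM under decitabine and 26.7, 32.2, 35.8 and 33.1 CPM under vehicle in parental tumours, with overlap in both lines. Its mean difference was -0.31 ± 0.09 (SE), adjusted p = 0.0272. The single responses were -0.24 in resistant (adjusted p = 0.454) and -0.43 in parental tumours (adjusted p = 0.161). The call was lost without parental doxorubicin library 3 (adjusted p = 0.069), resistant decitabine library 3 (0.0511), resistant combination library 2 (0.0526) or resistant vehicle library 3 (0.0574).

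DNA methylation in human cells lies mostly on cytosines followed by guanine, and the 250 bases upstream of the RefSeq transcript start (GRCh38.p14) are shown for 4 members, 5′ to 3′ on the strand of the gene, with each CG in capitals. STMN3 and CLIP1 (minus strand) are the members called with decitabine, and MAP1A and TUBB (plus strand) were chosen, after their values were seen, as members higher and lower in the resistant line under all 4 treatments.
STMN3 chr20:63652767-63653016: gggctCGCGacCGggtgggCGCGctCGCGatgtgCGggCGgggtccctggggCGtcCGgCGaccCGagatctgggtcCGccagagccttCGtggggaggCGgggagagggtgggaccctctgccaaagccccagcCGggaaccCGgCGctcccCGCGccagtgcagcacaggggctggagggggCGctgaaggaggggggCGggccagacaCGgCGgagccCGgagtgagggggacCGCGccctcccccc
CLIP1 chr12:122422670-122422919: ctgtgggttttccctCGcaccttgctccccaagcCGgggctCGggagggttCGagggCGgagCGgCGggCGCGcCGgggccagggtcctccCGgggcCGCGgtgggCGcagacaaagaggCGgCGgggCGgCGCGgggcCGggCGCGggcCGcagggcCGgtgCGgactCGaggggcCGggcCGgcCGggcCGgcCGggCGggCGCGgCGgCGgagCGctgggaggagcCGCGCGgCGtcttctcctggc
MAP1A chr15:43510704-43510953: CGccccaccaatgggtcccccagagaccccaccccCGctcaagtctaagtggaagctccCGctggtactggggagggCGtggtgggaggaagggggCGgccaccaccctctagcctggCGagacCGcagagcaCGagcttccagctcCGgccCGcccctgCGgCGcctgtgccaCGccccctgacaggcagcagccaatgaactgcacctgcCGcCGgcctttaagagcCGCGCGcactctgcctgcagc
TUBB chr6:30720102-30720351: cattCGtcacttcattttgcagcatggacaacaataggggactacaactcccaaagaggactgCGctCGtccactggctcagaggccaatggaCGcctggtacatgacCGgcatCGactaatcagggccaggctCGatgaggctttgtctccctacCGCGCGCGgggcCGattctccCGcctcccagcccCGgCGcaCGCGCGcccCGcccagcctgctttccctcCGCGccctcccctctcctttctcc
The windows held 28 CG in STMN3, 41 in CLIP1, 18 in MAP1A and 21 in TUBB. Of 35116 such windows in the RefSeq table, whose median is 11, 15.9% hold at least as many CG as that of STMN3, 1.73% as CLIP1, 36.8% as MAP1A and 30.2% as TUBB. CG was the only motif searched, it reads the same on both strands, and 93.9% of all windows hold at least 1. Over the 36 members with a window the median was 23.5 CG, with a range of 1 to 43. The window of STMN3 lies inside the gene as GENCODE 29 draws it, and that of TUBB reaches into its gene, so that they are upstream of the RefSeq start and not of every annotated start. DNA methylation was not analysed here.

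Under doxorubicin alone, no member passed the test in either line. In resistant tumours edgeR called 0 members and 0% of all genes, with 0 members at an unadjusted p under 0.05, against 4.38%, and 0 called by DESeq2. In parental tumours it called 0 members, against 0.23% of all genes, with 3 at an unadjusted p under 0.05, against 10.5%, and 1 called by DESeq2 (CLIP1, adjusted p = 0.034). Without the filter on low counts 1 was called (MAP2, -0.89, adjusted p = 0.0236). The smallest adjusted p in the filtered fit was that of CLIP1, which had 154, 152 and 152 CPM under doxorubicin and 191, 168, 195 and 179 CPM under vehicle. These groups did not overlap, but the difference did not pass (-0.26 ± 0.08 (SE), adjusted p = 0.184). In resistant tumours CLIP1 had 195, 182, 185 and 188 CPM under doxorubicin and 168, 171, 172 and 179 CPM under vehicle, and the difference between the lines in this response was 0.38 ± 0.11 (SE), adjusted p = 0.355. No member passed this test between the lines in edgeR, nor did any gene (0%), with 3 members at an unadjusted p under 0.05, against 7.99%, and 1 called by DESeq2 (CLIP1, 0.39, adjusted p = 0.0474).

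Averaged over lines and over decitabine, MAPT was higher with doxorubicin, the only member called, against 2.37% of all genes. MAPT had 72.9, 83.9, 59.5 and 73.3 CPM under doxorubicin and 70.4, 50.7, 81.2 and 60.3 CPM under vehicle in resistant tumours, and 21.2, 16.5 and 20.8 CPM under doxorubicin and 13.9, 12.2, 18 and 18.5 CPM under vehicle in parental tumours. Both pairs of groups overlapped. With decitabine in both arms it had 85.3, 50.8 and 67.7 CPM with and 67.2, 71.8 and 45.4 CPM without doxorubicin in resistant tumours, and 21.2, 19.1, 24.4 and 26 CPM with and 10.3, 11.3, 7.02 and 11.1 CPM without it in parental tumours. The parental groups were apart in this last pair. The mean difference was 0.45 ± 0.10 (SE), adjusted p = 0.0201, and the call was lost without resistant decitabine library 3 (adjusted p = 0.0525) or resistant combination library 1 (0.0578).

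Under the combination, no member passed against vehicle in either line. In resistant tumours edgeR called 0 members, against 1.13% of all genes, with 3 at an unadjusted p under 0.05, against 15.5%, and 0 called by DESeq2. In parental tumours it called 0 members, against 1.03%, with 9 at an unadjusted p under 0.05, against 17.9%, and 1 called by DESeq2 (MAP1B, -0.34, adjusted p = 0.0406). Without the filter on low counts 2 were called in each line, TUBB2B and TUBB6 in resistant tumours and TBCB and TBCD in parental tumours. The smallest adjusted p was that of TUBB6 in resistant tumours (0.65 ± 0.23 (SE), adjusted p = 0.174) and of MAP1B in parental tumours (-0.35 ± 0.11 (SE), adjusted p = 0.0975). MAP1B had 551, 578, 519.8 and 569 CPM under the combination and 731, 769.9, 629.9 and 686 CPM under vehicle in parental tumours, without overlap. Between the lines, edgeR called 0 members in the response to the combination, against 0.0222% of all genes, with 9 at an unadjusted p under 0.05, against 21%, and 0 called by DESeq2. Without the filter 3 were called there, TUBB6, TBCB and TBCD. A p that misses the threshold does not show that the responses were alike.

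**Figure D4:**
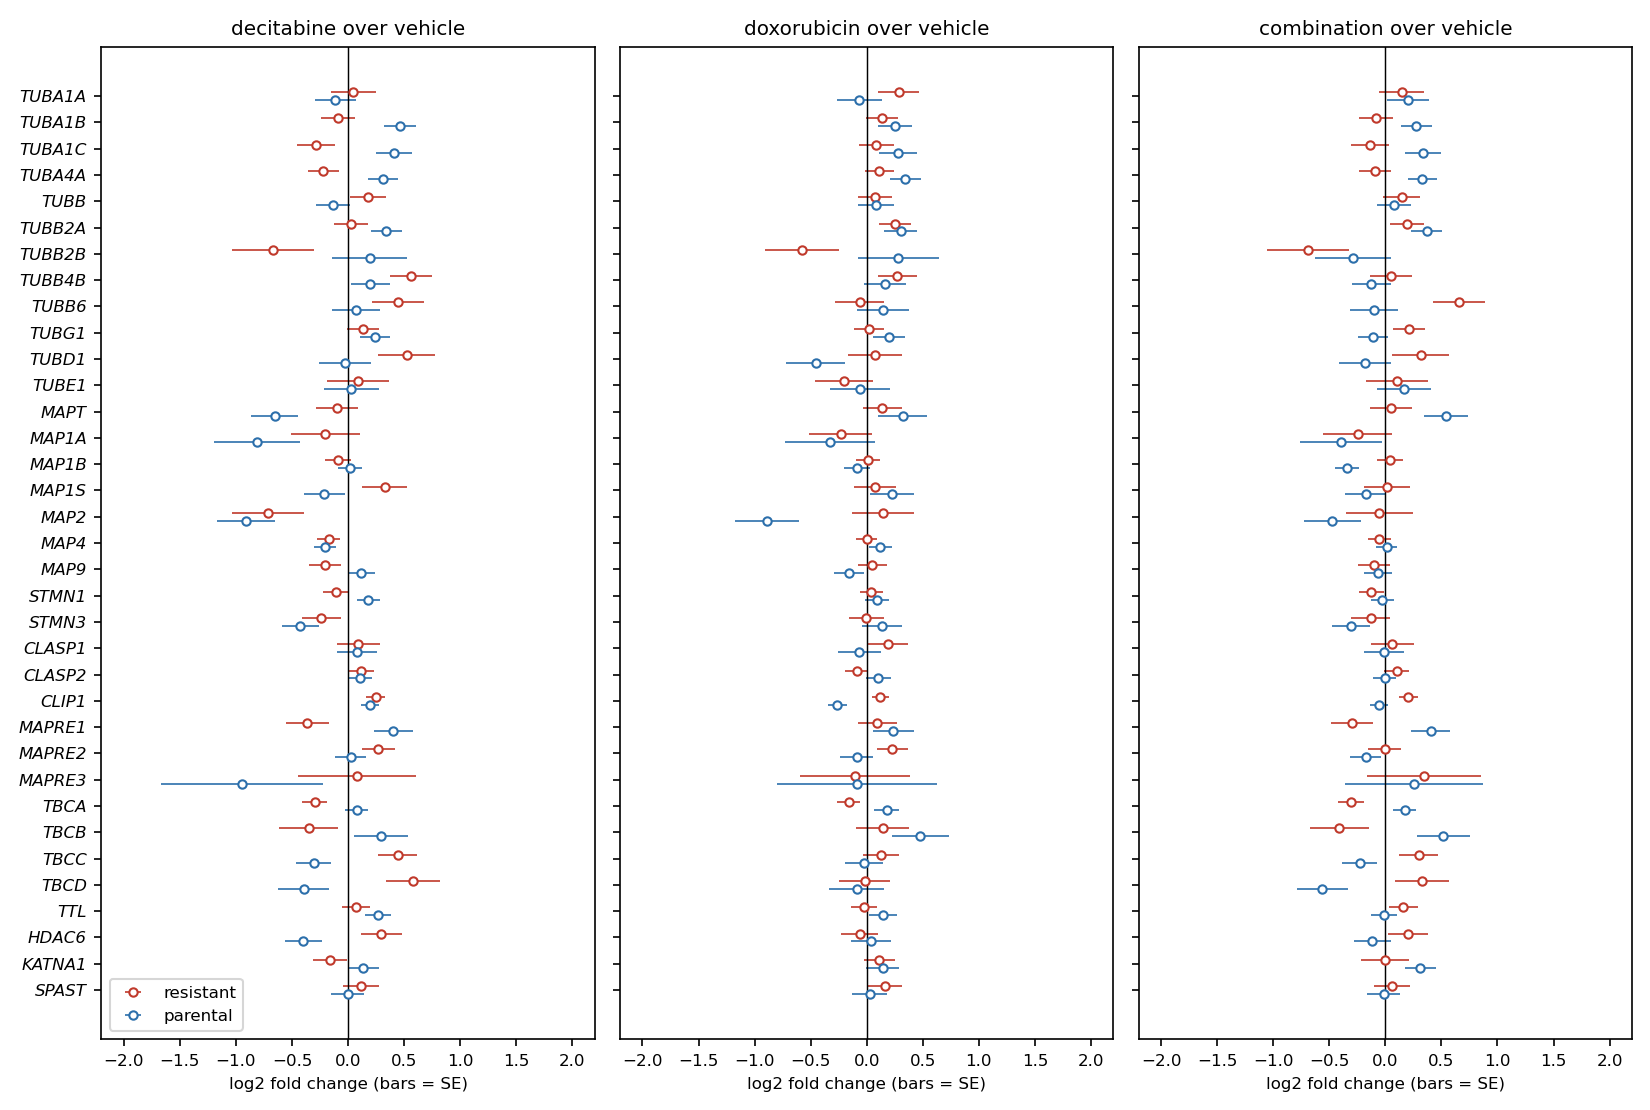
Log2 fold change over vehicle (x axis, bars are SE) of the 35 members tested (rows) under decitabine, doxorubicin and the combination, in resistant (red) and parental tumours (blue). No point passed an adjusted p under 0.05 in any panel.

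**Figure D5:**
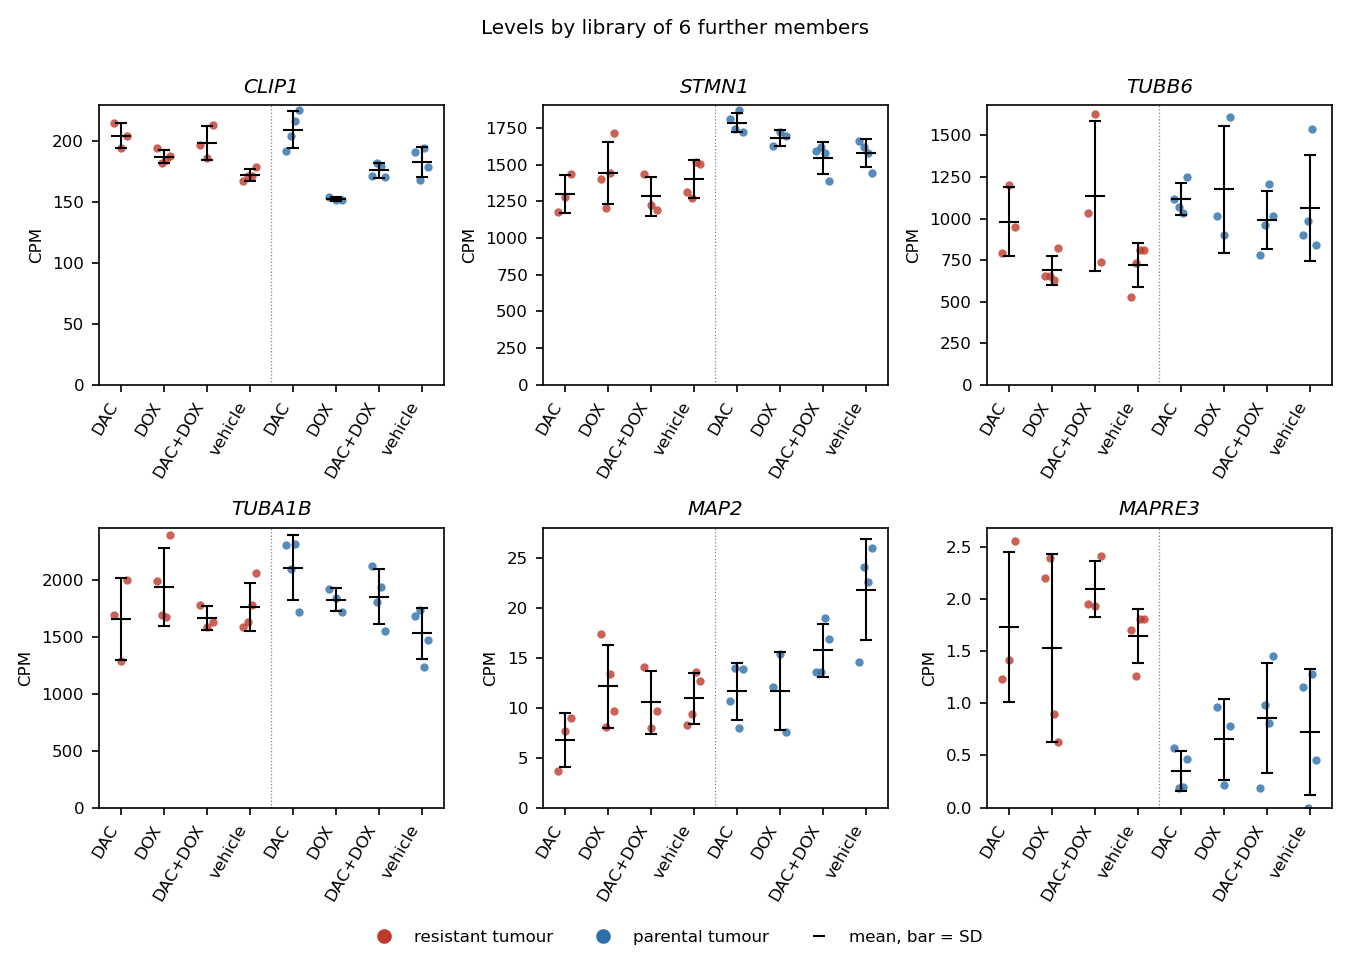
CPM (y axis, from 0) of CLIP1, STMN1, TUBB6, TUBA1B, MAP2 and MAPRE3 in each library by treatment, resistant tumours in red on the left and parental tumours in blue on the right, with means and SD in black. CLIP1 lies between 152 and 154 CPM in doxorubicin-treated parental tumours, and 1 combination-treated resistant library has 1627 CPM of TUBB6.

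Other genes of the microtubule system were counted by function, and the counts are read against all genes tested, of which 8.66% were higher and 11.5% lower in resistant tumours under vehicle and 22.6% higher and 23.4% lower on average. Of 46 further tubulins and microtubule-binding proteins, 30 were tested, and 5 were higher and 4 lower in resistant tumours under vehicle, or 6 higher and 9 lower on average. The 15 of 30 called on average are near the 46% of all genes. Among them TUBG2, a second γ-tubulin, was higher (0.70 ± 0.09 (SE) on average, adjusted p = 1.5e-07), as were the plus-end protein CLIP4 (0.52 ± 0.07) and GAS2L1 (0.55 ± 0.07), which links actin to microtubules. Of 22 further tubulin-modifying enzymes, 16 were tested and 0 were higher and 2 lower under vehicle, or 4 higher and 4 lower on average, again near the 46%. ATAT1, the α-tubulin acetyltransferase that HDAC6 opposes, was the enzyme with the smallest p, at -1.75 ± 0.12 (SE) on average (adjusted p = 1.53e-12) and -1.85 ± 0.22 (SE) under vehicle. The polyglutamylase TTLL7 (-0.52 ± 0.08) and VASH2 (-1.08 ± 0.20), of a family of tubulin carboxypeptidases, were also lower on average. VASH2 was scarce, with 80 counts over the resistant and 194 counts over the parental libraries, and did not pass under vehicle (adjusted p = 0.0911).

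The 10 tested genes of the γ-tubulin ring complex held 0 calls under vehicle (0 also at an unadjusted p under 0.05 and by DESeq2), and 1 higher (MZT2B, 0.35 ± 0.09) and 3 lower (among them NEDD1, -0.20 ± 0.06, and NME7, -0.20 ± 0.06) on average. Of 16 tubulin chaperone genes, 0 were higher and 2 lower under vehicle, and 1 higher and 6 lower on average, led by PFDN6 (-0.74 ± 0.11), PFDN2 (-0.36 ± 0.06) and CCT2 (-0.43 ± 0.08). Prefoldin and the chaperonin fold newly made tubulin. Of 31 transport motor genes tested, 0 were higher and 6 lower under vehicle, and 3 higher and 8 lower on average, among them KIF3C (0.40 ± 0.07), KIF13A (-0.54 ± 0.08) and DYNC1LI1 (-0.35 ± 0.07). These 11 of 31 motors are a smaller share than the 46% of all genes. Of 22 mitotic kinesins and spindle genes, 0 were higher and 4 lower on average, among them KIF2A (-0.25 ± 0.06), KIF18A (-0.58 ± 0.14) and KIFC1 (-0.60 ± 0.14), and 7 were lower with doxorubicin on average, where 2.37% of all genes were called in either direction. The 4 of 22 called between the lines on average are also a smaller share than 46%. Under decitabine 8 of the 22 were lower and 0 higher in resistant tumours, against 13.1% and 13.7% of all genes, with a median log2 difference of -0.495, against -0.02 over all genes. They were KIF18A (-1.20 ± 0.28), KIFC1 (-1.06 ± 0.29), KIF2A (-0.45 ± 0.13), KIF23, KIF20A, KIF2C, ASPM and CKAP2. Of 15 proliferation genes, 1 was higher (CDK1, 0.19 ± 0.08) and 2 lower (CDC20, -0.29 ± 0.10, and NDC80, -0.58 ± 0.10) on average between the lines. Under decitabine 5 of the 15 were lower in resistant tumours, NDC80 (-0.84 ± 0.19), CDC20 (-0.73 ± 0.20), BUB1, BUB1B and BIRC5, and 0 were higher, with a median of -0.35. Of the members, 8 were lower in the same comparison, STMN1 among them, and the part of the mitotic and proliferation genes in that was not tested. The genes given under decitabine were singled out after their values were seen. All errors of these log2 differences are SE.

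ABCB1, the efflux pump that exports paclitaxel, was near 0, with 9 counts over the resistant and 14 counts over the parental libraries. Of the 10 genes of taxane transport and metabolism 3 were tested, and ABCC10, an efflux pump that also carries taxanes, was lower in resistant tumours (-1.12 ± 0.22 (SE) on average, adjusted p = 0.000102). ABCC10 was scarce, with 95 counts over the resistant and 220 counts over the parental libraries, and did not pass under vehicle (-0.58 ± 0.39 (SE), adjusted p = 0.318). The neighbours of MAPT on chromosome 17 went in both directions: of 4 tested out of 15, PLEKHM1 (0.57 ± 0.09) and KANSL1 (0.23 ± 0.07) were higher and NSF (-0.34 ± 0.10) lower on average. MAPT, MAP1A, MAP2 and STMN3 are best known from neurons, and of 14 neuronal markers 4 were tested and 0 were called between the lines under vehicle or on average, and 0 also at an unadjusted p under 0.05 or by DESeq2. MAPT and MAP1A had their largest line differences under decitabine, where the response of MAPT in parental tumours was -0.65 (adjusted p = 0.0943, not called). Of the 4 neuronal markers tested, 2 were called between the lines under decitabine, both higher in resistant tumours. The median log2 difference over the 4 was 1.42, against -0.02 over all genes. UCHL1 had 9.25, 2.26 and 15.1 CPM in resistant and 0.38, 0.767, 0.585 and 0 CPM in parental tumours (4.25 ± 0.83 (SE), adjusted p = 0.000869), and ENO2, the enolase of neurons, had 119.8, 79.95 and 81.5 CPM in resistant and 76.3, 70.4, 33.9 and 67.8 CPM in parental tumours (0.60 ± 0.23 (SE), adjusted p = 0.0494). Summed over the 14 markers, the decitabine groups did not overlap, at 88.4 to 134 CPM in resistant and 36.7 to 78.4 CPM in parental tumours. Most of this sum was ENO2, which under vehicle had 110 to 157 CPM in resistant and 74.9 to 117 CPM in parental tumours. UCHL1 had 0 CPM in every vehicle-treated library of both lines. Over all treatments the sum ran from 88.4 to 162 CPM in resistant and 36.7 to 161 CPM in parental tumours, with INA at 0. Fibroblast markers summed to 218 to 2110 CPM in resistant and 361 to 2060 CPM in parental tumours, endothelial markers to 9.39 to 41.8 CPM in resistant and 17.3 to 30.8 CPM in parental tumours, and myeloid markers to 83.2 to 230 CPM in resistant and 73.0 to 190 CPM in parental tumours. Of these lists 0 of 6 fibroblast, 2 of 4 endothelial and 3 of 7 myeloid genes tested were called on average between the lines, and 1 of 6, 1 of 4 and 3 of 7 under decitabine. The host is a mouse, and how its reads were treated is not given, so they may enter the levels of markers and members. The part of all these markers, neuronal ones included, in the differences of the members was not tested.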

How the data were processed

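RNA of 29 xenograft tumours was measured with a 3′ tag assay (QuantSeq FWD), per the labels' protocols. The authors deposited a table of raw counts per gene, made from the reads before any normalization. The submitters' processing notes name cutadapt, STAR 2.7.3a, featureCounts, DESeq2 and the genome build GRCh38.p10. Which annotation release was counted, with which strand setting, and how mouse reads were treated is not given in the sources used here.

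Libraries were grouped by their titles. Symbols came from a separate reference of gene names by Ensembl identifier, and coordinates and overlaps from GENCODE 29. TBCE was not matched. Genes passing edgeR's filter (minimum count 10, minimum total 15) were fitted with edgeR 4.0.16 on R 4.3.3: trimmed mean of M-values scaling, 1 mean for each of the 8 groups, and the quasi-likelihood F test. P-values were adjusted over all genes tested (Benjamini-Hochberg, threshold 0.05). The SE of a log2 fold change is its size over the square root of F. The average line difference weights the 4 treatments equally, and average drug effects weight their pairs equally. The steps were tested on simulated data.

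Values by library, by range or as differences are given for members called between the lines under vehicle or on average or called for a drug, and for TUBB, TUBB3, STMN1 and MAP4. The average line difference is given for only part of the members called on it. Other lists give up to 3 called genes with the smallest p. The members, the lists and the alternatives were chosen with earlier results of these data known. Alternatives were DESeq2 1.42.0 and its size factors, upper quartile scaling, no filter or a CPM filter, the replicate number as a block, fits to the compared groups alone, and leaving out each library or both libraries that stand apart. Libraries of the same group all differed by more than counting noise, with a chi-square of at least 3.65 times its degrees of freedom. Promoter windows came from the RefSeq table of GRCh38.p14, and genes that overlap another gene or have near-identical copies are uncertain.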

Additional observations from a re-analysis of the deposited data

Results flagged for a closer look

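In 12 of 130 groups of 4 libraries tested, over 26 members, the highest or lowest library lay apart from the other 3 by Dixon's criterion. Chance alone flags about 1 in 20 groups. The part of any of these libraries in the results was not tested beyond leaving it out.

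In resistant tumours, TBCA was high in vehicle library 1 at 400.0 CPM (343 to 353 CPM in the other 3) and low in doxorubicin library 3 at 277 CPM (335 to 345 CPM in the others). MAP1B was low in doxorubicin library 4 at 447 CPM, against 594 to 613 CPM in the others. TUBB6 was high in the same library at 821 CPM, against 629 to 655 CPM in the others. CLASP2 was low in resistant vehicle library 1 at 41.5 CPM, against 52.4 to 53.8 CPM in the others.

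In parental tumours, CLASP2 was high in vehicle library 1 at 66.1 CPM, against 54.8 to 56.1 CPM in the others. TUBA1A was high in combination library 1 at 455 CPM, against 283 to 287 CPM in the others. MAP1A was low in decitabine library 2 at 0.959 CPM, against 2.09 to 2.15 CPM in the others. TBCD was high in decitabine library 4 at 85.6 CPM, against 56.2 to 57.5 CPM in the others.

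TUBB3 was detected in 1 library of each of 3 groups and was at 0 in the other 3, which is what flagged it. It had 0.243 CPM in resistant vehicle library 1, 0.464 CPM in parental vehicle library 1 and 0.186 CPM in parental combination library 1.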

How the results depend on the processing

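Single members were followed where the main fit called them, and TUBB, STMN1 and MAP4 also, called or not, under vehicle and on average. Of these 1592 values under an alternative, 1438 kept their direction and their side of the threshold, 154 lost their call and 0 reversed. As nearly all were chosen because they were called, few could reverse, and gained calls are given apart. Without the filter on low counts, calls among members were 3 for decitabine in resistant tumours and 3 in parental tumours, 1 for doxorubicin in parental tumours, and 2 for the combination in each line. Line differences gained without the filter were TUBB6 under vehicle, TUBA1A, TUBA1C, TUBB4B and MAP2 under decitabine, HDAC6 under doxorubicin, TBCB under the combination, and TBCB and MAP7 on average. For members tested in both fits the estimates were close, as for TUBB6 under vehicle (-0.574 without and -0.565 with the filter). The gains thus came with little change in these differences, and what brought them was not tested. DESeq2 gained CLIP1 under the combination and on average. In edgeR without the filter, the responses that differed between lines were 4 for decitabine and 3 for the combination. DESeq2 called 1 member for decitabine in resistant and 2 in parental tumours, 1 each for doxorubicin and the combination in parental tumours, and 1 member whose response to doxorubicin differed between lines. edgeR called 0 in each of these; the cause was not tested. Line differences under decitabine were 6 when the compared groups were fitted alone, which uses fewer samples, does not test MAPRE3 and loses TUBB, TUBB2A, MAP1B, MAPRE1, TBCA and TTL, and 8 without the libraries that stand apart, against 13.

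Leaving out 1 library at a time, members called ranged from 7 to 10 for the line difference under vehicle, 8 to 14 under decitabine, 6 to 10 under doxorubicin, 6 to 9 under the combination and 19 to 24 on average. They ranged from 0 to 2 for decitabine in each line, 1 to 2 for decitabine on average, 0 to 2 for doxorubicin on average and 0 to 1 for the difference between lines in the combination response. With a replicate block, line differences were called for 10 members under vehicle, 12 under decitabine, 10 under doxorubicin, 8 under the combination and 22 on average, with TUBB under decitabine and TUBE1 on average lost. Of 94 pairs of libraries with the same number in different groups, 27 had deviations correlated over 0.1 (range -0.461 to 0.427). The mean was 0.0057, against -0.000737 for pairs with different numbers. A mean over all pairs cannot show whether single libraries share an animal. Low counts limit TUBB3, MAP7 and MAPRE3 most.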
